A study of Mus musculus with 4 samples.

Results

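Collagen chains are described here across the cells of the mouse lung. The 44 genes whose symbol has the form of a collagen alpha chain were taken from the 31055 features of the deposited matrix, and 43 of them had at least 1 UMI (unique molecular identifier, 1 captured mRNA molecule) in the kept cells. No UMI of Col10a1 was found in any kept cell, 7 chains had 1 to 29 UMIs, and 36 had 30 or more. The cells were sorted as CD45neg CD31neg, which sets aside leukocytes and endothelium, from the lung of mice aged about 8 weeks that had received tamoxifen, with the genotype Gli1CreERT2/WT;Rosa26mTmG/WT. In such mice Cre acts in cells that express Gli1 at dosing and switches their reporter from tdTomato to Egfp, and all cells of the study shared that genotype and dosing. The 4 samples carried the same labels and formed 1 group, and no file used here ties a cell to a sample, so all cells were treated as 1 sample. No test over samples was therefore possible: every interval given below is a 95% interval for counting error only, and every comparison is between sets of cells of the same pooled matrix.

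Collagens are proteins of the extracellular matrix in which 3 alpha chains wind into a triple helix, in which glycine recurs at a fixed spacing. Fibrillar chains (types I, II, III, V, XI, XXIV and XXVII) form the tensile fibrils of the airway and vessel wall, and the 6 type IV chains form the sheet of the basement membrane beneath epithelium and around smooth muscle. Type VI chains form beaded filaments, type VIII and X chains form open networks, FACIT chains (fibril-associated collagens with interrupted triple helices) sit on fibrils, the multiplexins XV and XVIII link basement membranes to the matrix, type VII forms anchoring fibrils, and types XIII, XVII, XXIII and XXV span the cell membrane. In the lung, fibroblasts are the known main source of fibrillar chains, and Col4a3, Col4a4 and Col4a5 make the type IV network of the alveolar wall. The 44 genes comprised 11 fibrillar, 6 basement membrane, 6 beaded filament, 3 network, 9 FACIT, 2 multiplexin, 1 anchoring fibril, 4 transmembrane and 2 other chains.

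Fibrillar and type IV chains stand apart from the other families in the transcripts themselves. In the longest open reading frame of each gene's GENCODE M21 transcripts, the longest unbroken run of codon triplets that begin with a glycine codon (GGN) was 338 triplets in Col1a1, 339 in Col1a2 and 344 in Col3a1. Over the 11 fibrillar chains the median was 338.0, with Col24a1 (216) the shortest. Type IV chains held their triplets in 22 to 27 shorter runs of 5 or more, the longest of 39 to 66 triplets. FACIT chains ran from 32 triplets in Col12a1, Col14a1 and Col20a1 to 113 in the Col9 chains and Col22a1, and both multiplexins reached 30. The longest runs of beaded filament (37 to 87) and transmembrane chains (40 to 56) overlapped with those of FACIT and type IV chains. Run length therefore does not separate these families.

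Type IV genes lie in head to head pairs, each pair sharing 1 upstream region, and their 5′ sequences are shown for the members with a sequence. On GRCm38, the starts of Col4a1 (chr8:11198423-11312826, minus strand) and Col4a2 (chr8:11312805-11449287, plus strand) were 21 bases apart, and the 2 genes overlapped at that end on opposite strands. Col4a3 (chr1:82586921-82722059, plus strand) and Col4a4 (chr1:82448423-82586849, minus strand) started 72 bases apart, and Col4a5 (chrX:141475385-141689234, plus strand) and Col4a6 (chrX:141165403-141474076, minus strand) started 1309 bases apart. No member overlapped another gene on the same strand. RefSeq windows of 300 bases (most of it upstream of the start, build GRCm38.p6) were found for 35 of the 44 genes, 38 windows in all, and none was found for Col1a1, Col2a1, Col4a3, Col5a2, Col9a3, Col12a1, Col14a1, Col22a1 and Col26a1. Capitals mark the CCAAT motif and, apart from it, the GGGCGG motif, on either strand (the first then reads ATTGG and the second, in reverse complement, CCGCCC). Each sequence is written 5′ to 3′ on the gene's own strand.
Col4a1: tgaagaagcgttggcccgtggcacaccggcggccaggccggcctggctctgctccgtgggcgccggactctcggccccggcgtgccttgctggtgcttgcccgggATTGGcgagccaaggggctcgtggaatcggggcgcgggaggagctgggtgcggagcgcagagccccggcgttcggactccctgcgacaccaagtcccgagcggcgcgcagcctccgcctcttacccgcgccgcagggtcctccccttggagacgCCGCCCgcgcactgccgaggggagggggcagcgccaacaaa
Col4a2: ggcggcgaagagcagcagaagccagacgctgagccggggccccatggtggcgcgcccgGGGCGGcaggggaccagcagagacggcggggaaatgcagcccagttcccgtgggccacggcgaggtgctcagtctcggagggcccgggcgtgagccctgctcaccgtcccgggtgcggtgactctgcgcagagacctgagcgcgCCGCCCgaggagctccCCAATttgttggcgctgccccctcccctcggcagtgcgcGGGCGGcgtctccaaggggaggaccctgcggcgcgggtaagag
Col4a4: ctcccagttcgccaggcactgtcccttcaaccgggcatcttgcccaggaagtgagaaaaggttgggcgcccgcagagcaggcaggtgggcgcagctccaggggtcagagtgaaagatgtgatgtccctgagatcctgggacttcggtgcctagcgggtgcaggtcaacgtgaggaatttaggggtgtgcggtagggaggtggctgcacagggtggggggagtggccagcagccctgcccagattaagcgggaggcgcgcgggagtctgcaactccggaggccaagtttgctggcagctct
Col4a5: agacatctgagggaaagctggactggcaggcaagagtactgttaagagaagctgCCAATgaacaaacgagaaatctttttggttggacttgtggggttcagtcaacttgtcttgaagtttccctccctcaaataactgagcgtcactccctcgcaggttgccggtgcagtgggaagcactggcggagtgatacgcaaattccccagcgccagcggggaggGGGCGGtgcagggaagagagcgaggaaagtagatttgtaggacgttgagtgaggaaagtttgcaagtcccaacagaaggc
Col4a6: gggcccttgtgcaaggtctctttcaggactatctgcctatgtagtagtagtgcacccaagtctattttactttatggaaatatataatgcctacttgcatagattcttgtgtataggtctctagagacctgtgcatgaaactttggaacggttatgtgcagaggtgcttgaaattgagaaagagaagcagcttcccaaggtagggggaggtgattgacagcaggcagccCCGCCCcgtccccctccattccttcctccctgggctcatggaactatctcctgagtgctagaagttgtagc
The windows are chr8:11312777-11313076 (minus strand) for Col4a1, chr8:11312555-11312854 (plus) for Col4a2, chr1:82586800-82587099 (minus) for Col4a4, chrX:141475169-141475468 (plus) for Col4a5 and chrX:141474027-141474326 (minus) for Col4a6. Those of Col4a1 and Col4a2 overlap. GGGCGG, on either strand, stood in 23 of the 38 collagen windows (60.5%) and in 35.7% of the 32851 windows of all genes. CCAAT stood in 34.2% of the collagen windows against 37.4% of all, and TATAAA in 13.2% against 13.6%. These matches describe letters only.

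After filtering, 8933 cells with 76127432 UMIs remained, 699 to 77372 per cell (median 7967). Clusters were built without the collagen genes and named from marker genes. Each defining marker given here was highest in the class it names. Pi16 stood at 1815 CPM (UMIs of the gene per 1000000 UMIs of the cells) in adventitial-like fibroblasts. Inmt stood at 5429.6 in alveolar-like fibroblasts and Hhip at 4513 in peribronchial or myofibroblast-like cells. Myh11 stood at 3049 in smooth muscle-like, Msln at 3943 in mesothelial-like and Ager at 15405 in alveolar type 1-like cells. Inmt was also at 1784 in adventitial-like and 1368 in alveolar type 1-like cells. Summed adventitial fibroblast markers stood at 20842 CPM in alveolar-like cells, beside 14742 for their own list, and at 56822 in adventitial-like cells. The peribronchial or myofibroblast-like cells also held smooth muscle markers, with Acta2 at 4154 and Myh11 at 663 CPM. Their summed smooth muscle markers stood at 12532 CPM, beside 12831 for their own list (mean z-scores 2.41 and 2.60). A cluster of 789 fibroblasts led by Bmp7, Lamc3, Adh7 and Notum scored alike for the adventitial and the alveolar list, held Pi16 at 1000.2 and Inmt at 1715 CPM, and is called the Bmp7/Notum cluster. Although the sort was against CD45 and CD31, 91 leukocyte-like and 66 endothelial-like cells were present. Sftpc, the surfactant gene of alveolar type 2 cells, stood at 494 to 2055 CPM in the 6 mesenchymal sets. It stood at 6534 in leukocyte-like, 16183 in alveolar type 1-like and 33914 in endothelial-like cells. Its part in the results below was not tested. The 66 endothelial-like cells also held adventitial fibroblast markers summed to 6686 CPM and erythroid markers to 5814, beside 11398 for their own list.

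Collagen mRNA made up 1.52% of all UMIs, and Col1a1, Col1a2 and Col3a1 gave 75.9% of those 1156659 UMIs. Because 3′ libraries count 1 end per molecule, levels in CPM carry no length factor. Adventitial-like cells (n = 2529 cells) gave collagen the highest share of their UMIs, 3.28% (3.28 to 3.29). The Bmp7/Notum cluster followed at 2.17%, then alveolar-like (2322 cells) at 1.04%, peribronchial or myofibroblast-like (427) at 0.871%, smooth muscle-like (179) at 0.724% and mesothelial-like cells (209) at 0.717%. The last 2 did not differ beyond their intervals (0.710 to 0.738 and 0.705 to 0.729). Alveolar type 1-like cells (209) reached 0.575%, while alveolar type 2-like (1654 cells, 0.0640%), ciliated-like (238 cells, 0.0468%) and club or secretory-like cells (73 cells, 0.0441%) were near 0. These are shares of all UMIs, so very abundant mRNAs lower them. Scgb1a1 alone took 518550 CPM in club or secretory-like cells, and Sftpc took 191610 in alveolar type 2-like cells. The leukocyte-like (0.321%) and endothelial-like cells (0.480%) lay between, with fibrillar chains at 77.4% and 57.6% of their collagen.

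**Figure D1:**
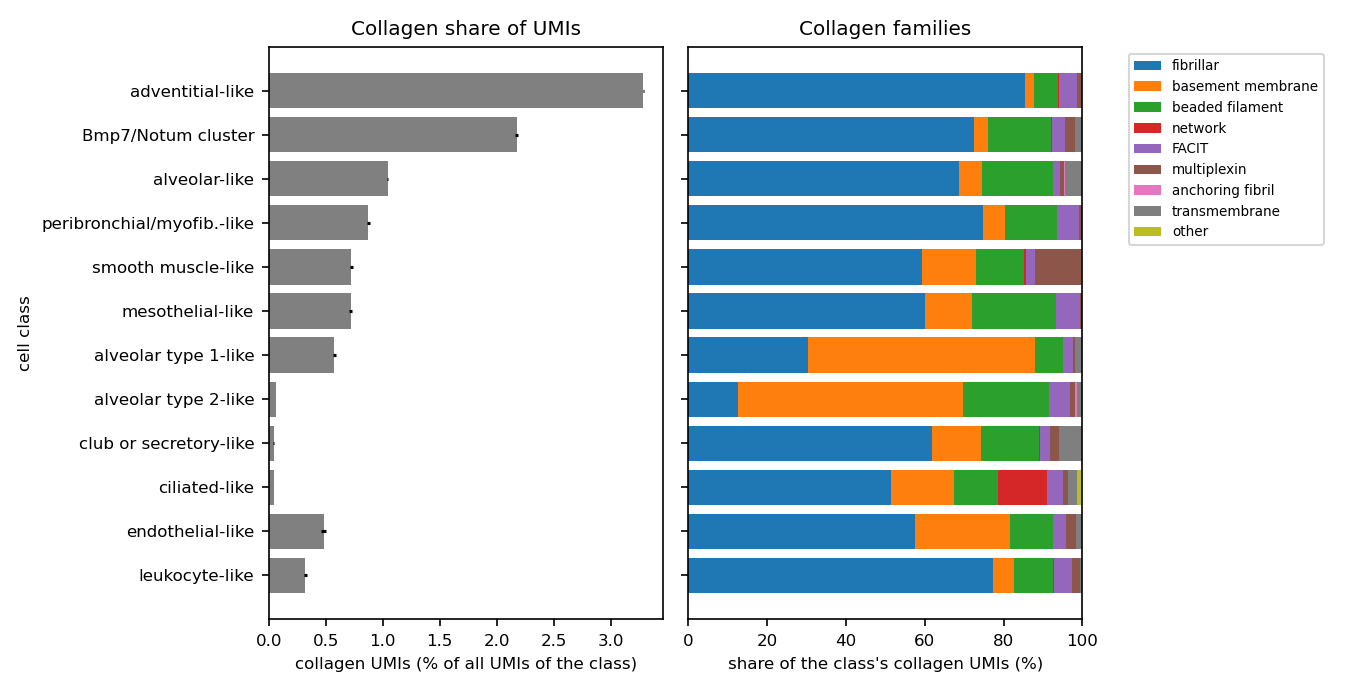
Left, collagen UMIs as a percentage of all UMIs in each of 12 cell classes, with exact 95% binomial intervals for counting error. Right, the families' shares of each class's collagen UMIs in percent. Fibrillar chains made 85.4% of collagen in adventitial-like cells, and type IV chains made 57.7% in alveolar type 1-like cells.

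The make-up of that collagen differed between classes. Fibrillar chains were 85.4% of collagen UMIs in adventitial-like, 72.4% in the Bmp7/Notum cluster, 68.7% in alveolar-like and 59.3% in smooth muscle-like cells. Type IV chains took 2.26% in adventitial-like cells, 5.86% in alveolar-like cells, 13.5% in smooth muscle-like cells and 57.7% and 57.1% in alveolar type 1-like and type 2-like cells. Beaded filament chains made 21.2% in mesothelial-like cells and 17.9% in alveolar-like cells, against 6.29% in adventitial-like cells. Multiplexins reached 11.7% in smooth muscle-like cells, and network chains 12.5% in ciliated-like cells.

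**Figure D2:**
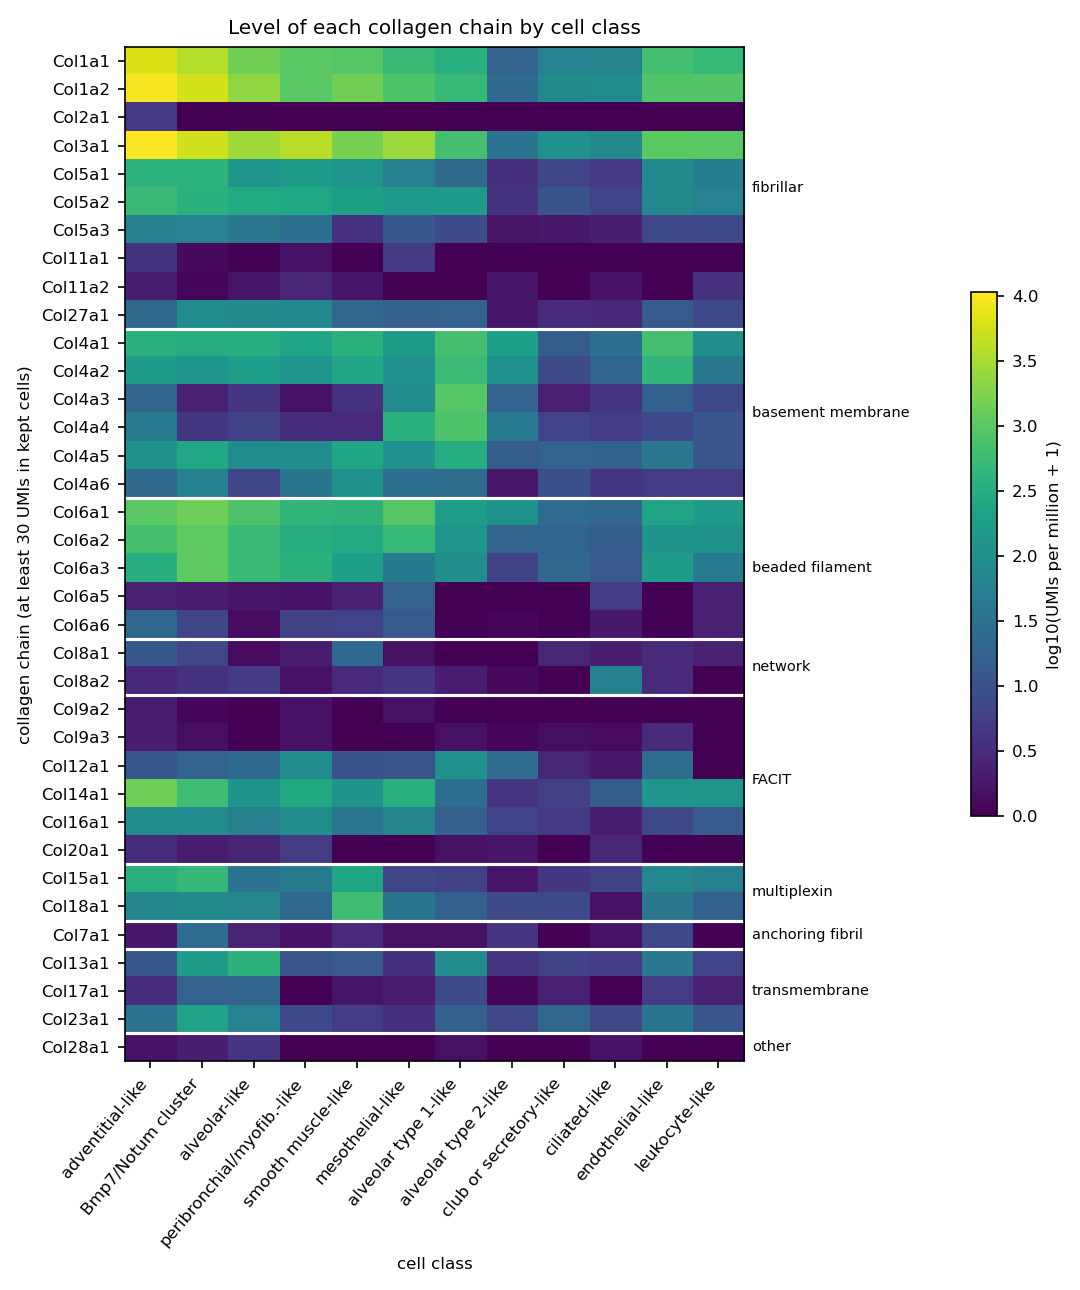
Level of the 36 chains with at least 30 UMIs, as log10 of CPM plus 1, in 12 cell classes, grouped by family. Col1a1, Col1a2, Col3a1 and Col5a2 are highest in adventitial-like cells, Col4a3 and Col4a4 in alveolar type 1-like and mesothelial-like cells, and Col8a2 in ciliated-like cells.

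Between mesenchymal (6455) and epithelial (2174) cells, 28 of the 36 measured chains were at least 2-fold higher in the mesenchyme and 3 were at least 2-fold lower. Over all 14521 features measured the same way, 25.6% were higher and 19.4% lower, and the median ratio was 1.15 against 12 for the chains. The 3 lower chains were Col4a3 (0.158, 0.144 to 0.172), Col4a4 (0.390, 0.366 to 0.415) and Col8a2 (0.305, 0.242 to 0.384). Col4a1 (1.85), Col4a2 (1.37), Col7a1 (1.95), Col12a1 (0.732) and Col11a2 stayed within 2-fold. The largest ratios among chains with UMIs on both sides belonged to Col15a1 (129, 97.2 to 176) and Col14a1 (119, 102 to 140).

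Fibrillar chains were the most abundant. Col3a1, the chain of the thin fibrils that accompany type I, stood at 10699.9 CPM in adventitial-like cells, 5384 in the Bmp7/Notum cluster, 4009 in peribronchial or myofibroblast-like, 2893 in alveolar-like, 2702 in mesothelial-like and 1568 in smooth muscle-like cells. Col1a2 (chr6:4504814-4541544, plus strand) followed the order 9786, 5588, 986, 2256, 831 and 1455 over the same classes, and Col1a1 (chr11:94936224-94953042, plus strand) 6523, 3849.9, 987, 1465, 537 and 921. Peribronchial or myofibroblast-like and mesothelial-like cells were therefore rich in Col3a1 relative to type I chains. Col5a1 and Col5a2, which help to start type I fibrils, were at 396 and 541 in adventitial-like cells and at 129 and 289 in alveolar-like cells. Col5a3 ranged from 61.0 in the Bmp7/Notum cluster to 2.77 in smooth muscle-like cells. Col27a1 went against the rest of its family: it stood at 22.1 in adventitial-like cells and at 90.1, 78.0 and 74.0 in the Bmp7/Notum cluster, alveolar-like and peribronchial or myofibroblast-like cells. Col24a1 was rare, with 18 UMIs in the Bmp7/Notum cluster, 6 in adventitial-like cells and 2 in the alveolar-like class.

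Adventitial-like against alveolar-like cells, the main pair of fibroblast classes, gave 13 chains at least 2-fold higher and 4 at least 2-fold lower of 34 measured. Over all 12525 features, 8.93% were higher and 10.4% lower, and the median ratio was 0.908 against 1.57 for the chains. By family, 6 of 10 fibrillar, 3 of 6 basement membrane, 1 of 5 beaded filament, 1 of 2 network, 1 of 4 FACIT and 1 of 2 multiplexin chains were higher. None of the 3 transmembrane chains was. The highest ratios with at least 100 UMIs were those of Col6a6, a rarer type VI chain (56.0, 23.8 to 173), Col8a1 (40.6, 15.7 to 150), Col14a1 (11.8, 11.2 to 12.4), Col15a1 (10.9, 9.88 to 12), Col4a4 (8.33, 6.56 to 10.7) and Col4a3 (5.85, 4.30 to 8.14). Col1a1 (4.45, 4.39 to 4.52), Col1a2 (4.34, 4.29 to 4.39), Col4a6 (3.84, 3.03 to 4.92), Col3a1 (3.70, 3.66 to 3.74) and Col5a1 (3.06, 2.91 to 3.23) followed. The 4 lower chains were Col13a1 (0.0305, 0.0270 to 0.0344), Col17a1 (0.121, 0.0894 to 0.162), Col28a1 (13 UMIs against 42) and Col27a1 (0.284, 0.255 to 0.315).

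Several chains hardly differed. Col4a1 (1.16), Col4a2 (0.924), Col4a5 (1.22), Col6a1 (1.21), Col6a2 (1.38) and Col18a1 (0.960, 0.886 to 1.04) lay within 1.5-fold. Where the Bmp7/Notum cluster was named by the higher of its 2 near-tied scores and so counted as alveolar-like, 7 chains were lower, the collagen share ratio went from 3.15 to 2.30 and the ratio of Col4a6 turned to 0.971. Of the 13 higher chains, Col2a1 and Col11a1 rested on cells with a Col2a1 UMI, and without those cells 11 were higher and 5 lower.

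**Figure D3:**
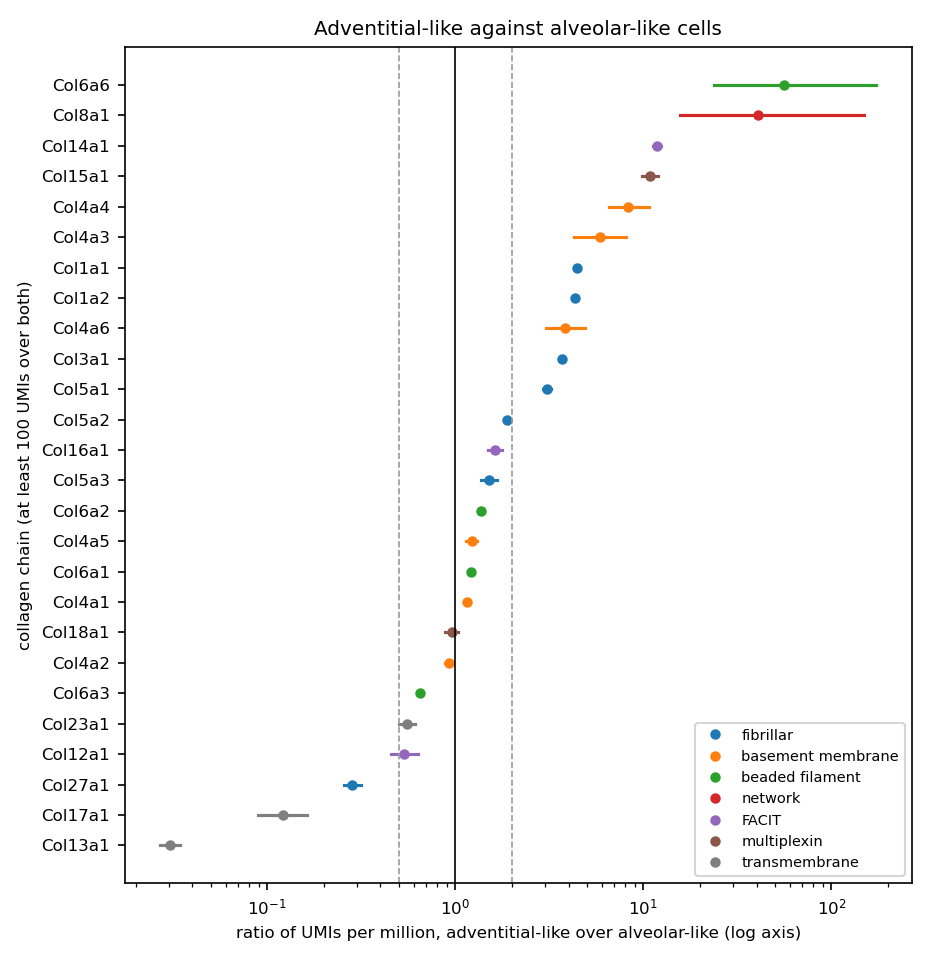
Ratio of CPM in adventitial-like over alveolar-like cells for chains with at least 100 UMIs over both, on a log axis, with exact 95% intervals for counting error. Dashed lines mark 2-fold in each direction, and colours mark families. Col6a6 and Col8a1 lie at the top (56.0 and 40.6) and Col13a1 at the bottom (0.0305).

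FACIT and multiplexin chains differed from one another in where they were highest. Col14a1 (chr15:55307750-55520803, plus strand), which binds fibrils and limits their diameter, was at 1403 CPM in adventitial-like cells, 605 in the Bmp7/Notum cluster, 358 in mesothelial-like, 284 in peribronchial or myofibroblast-like, 121 in smooth muscle-like and 119 in alveolar-like cells. Cut to 2000 UMIs per cell, 87.9% of adventitial-like and 14.1% of alveolar-like cells had a Col14a1 UMI, against 2.5% of leukocyte-like cells, whose median depth was 6482 UMIs (adventitial-like 9070.0, alveolar-like 5319.5). Col12a1, a FACIT of tissues under load, was highest in alveolar type 1-like (103) and peribronchial or myofibroblast-like cells (89.8) and reached only 12.1 in adventitial-like cells. Col16a1 was at 56.2 in alveolar-like, 88.3 in Bmp7/Notum and 91.4 in adventitial-like cells, with peribronchial or myofibroblast-like cells (177 UMIs) not separated from the last (ratio 1.09, 0.933 to 1.28). Col15a1, the multiplexin of vessel and muscle basement membranes, was at 485 in the Bmp7/Notum cluster, 355 in adventitial-like and 229 in smooth muscle-like cells but 32.7 in alveolar-like and 5.90 in mesothelial-like cells. The other multiplexin, Col18a1, the source of endostatin, was at 621 in smooth muscle-like cells and at 20.9 to 83.9 in the other 5 mesenchymal sets. Col20a1 (highest level 3.95), Col22a1 (8 UMIs in alveolar-like and 5 in smooth muscle-like cells) and Col19a1 (1 UMI) were rare.

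Type VI chains were spread over the mesenchyme. Col6a1 ranged from 417 in smooth muscle-like cells to 1357 in the Bmp7/Notum cluster, with adventitial-like (985), mesothelial-like (948) and alveolar-like cells (813) between. Col6a2 followed at 288 to 1088. Col6a3, the largest chain of the usual heterotrimer, was at 1063 in the Bmp7/Notum cluster, 538 in alveolar-like and 349 in adventitial-like cells, and at 41.3 in mesothelial-like cells, where Col6a1 was high. Alveolar type 2-like cells had Col6a1 at 115, with Col6a2 at 19.7 and Col6a3 at 5.05. Col6a6 was at 20.8 in adventitial-like and 12.3 in mesothelial-like cells and at 0.371 in alveolar-like cells. Col6a5 was highest in mesothelial-like cells (17.2, 11.7 to 24.2), mostly in a small part of them high in the fibroblast gene Dcn, described below. Col6a4 had at most 1 UMI in any class.

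Basement membrane chains split into 3 patterns. Col4a1 and Col4a2, which form the common type IV trimer, were present in nearly all mesenchymal sets (Col4a1 158 to 389, Col4a2 107 to 244) and were higher in alveolar type 1-like cells (687 and 555) and endothelial-like cells (666 and 425). Alveolar type 2-like cells also had Col4a1 at 184 and Col4a2 at 103. Col4a3 and Col4a4 were highest in alveolar type 1-like cells, at 940.0 and 802 CPM, and next highest in mesothelial-like cells, at 85.3 and 369. In the alveolar-like, peribronchial or myofibroblast-like, smooth muscle-like and Bmp7/Notum sets both lay between 0.565 and 5.35. Cut to 2000 UMIs per cell, 76.8% of alveolar type 1-like cells had a Col4a3 UMI and 3.65% of alveolar type 2-like cells did, with none among 80 leukocyte-like cells (upper limit 4.51%). Col4a5 and Col4a6, the pair that surrounds smooth muscle, were at 230.1 and 112 in smooth muscle-like cells and at 251 and 57.4 in the Bmp7/Notum cluster. Col4a5 was also at 310.0 in alveolar type 1-like cells, where Col4a6 stood at 25.3.

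Alveolar type 1-like against type 2-like cells had 20 of 22 measured chains at least 2-fold higher and 1 lower, Col7a1, beside 27.5% and 12.5% of 11259 features. The ratios of Col4a3 (54.3, 47.8 to 61.8), Col4a5 (21.3, 18.2 to 24.8) and Col4a4 (17.8, 16.3 to 19.5) exceeded those of Col4a2 (5.38) and Col4a1 (3.72). Fibroblast genes moved with this comparison: summed adventitial fibroblast markers stood at 4939.9 CPM in alveolar type 1-like and 469 in type 2-like cells, and alveolar fibroblast markers at 5285 and 378. Their part in the counts of chains was not tested. In a finer clustering, chosen after the values were seen, the alveolar type 1-like cells fell into parts of 126 and 83 cells. The 126-cell part had Inmt at 352, Col1a1 at 202 and Col13a1 at 24.8 CPM, and the 83-cell part 3311, 653 and 205. Col4a3 was 1117 and 602, Col4a4 984 and 452, Col4a1 761 and 546 and Col12a1 111 and 87.4 in the same parts. Of these, Col4a1, Col4a3, Col4a4 and Col12a1 were as high or higher in the part with less Inmt, and Col1a1 and Col13a1 were lower there. The part of fibroblast RNA in these levels was not tested. With doublets kept, 10 chains were higher in place of 20, and Col14a1 stood at 0.843.

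Network chains were rare and lay in different cells. Col8a1 (chr16:57624258-57754737, minus strand), a chain of short-chain networks in vessel walls, had 371 mesenchymal UMIs, 275 of them in adventitial-like cluster 2 (32.7 CPM) and 33 in smooth muscle-like cells (22.9). Col8a2 (chr4:126286793-126314330, plus strand), its partner in the cornea, was highest in ciliated-like cells at 57.5 CPM, against 0 to 3.79 elsewhere. A Col8a2 UMI was seen in 47.9% of ciliated-like cells (41.4 to 54.4, median depth 11237.5 UMIs) and in 0.242% of alveolar type 2-like cells (median depth 9429 UMIs), and after cutting to 2000 UMIs per cell in 13.1% (9.06 to 18.0) and in none of 1646. Col26a1, a chain of uncertain class, was found mainly in the same ciliated-like cells, at 5.39 CPM and in 7.14% of cells.

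Of the 3 measured membrane-spanning chains, Col13a1 and Col17a1 were higher in alveolar-like than in adventitial-like cells. Col13a1 (chr10:61838236-61979108, minus strand), a chain of cell adhesion sites, was at 391 CPM in alveolar-like cells, 167 in the Bmp7/Notum cluster and 2.68 to 12.5 in the other mesenchymal sets. Thinned to 2000 UMIs, 53.5% of alveolar-like, 25.3% of Bmp7/Notum and 2.18% of adventitial-like cells had a UMI of it, against 1.25% of leukocyte-like cells. Col17a1, known from the hemidesmosomes of skin and airway, was at 19.8, 17.7 and 2.40 in alveolar-like, Bmp7/Notum and adventitial-like cells, the first pair not separated (ratio 1.12, 0.904 to 1.40). Col23a1 was highest in the Bmp7/Notum cluster (207) and stood at 61.1 in alveolar-like and 33.7 in adventitial-like cells. Col7a1, the anchoring fibril chain of skin, was at 24.4 in the Bmp7/Notum cluster, with 170 of its 215 mesenchymal UMIs there, and at 0.537 to 2.08 in the other mesenchymal sets. A UMI of it was seen in 17.1% of Bmp7/Notum cells (median depth 8511 UMIs), in 0.712% of adventitial-like cells and in none of 91 leukocyte-like cells (upper limit 3.97%). Col28a1, a chain known from nerve sheaths, had 33 of its 63 mesenchymal UMIs in alveolar-like cluster 8, and Col25a1 had 1 UMI, in a ciliated-like cell.

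The Bmp7/Notum cluster held the highest level of 9 of the 36 chains, adventitial-like cells of 8 and alveolar type 1-like cells of 6. Of the 9, Col5a1 (ratio to adventitial-like cells 1.01, 0.963 to 1.05) and Col5a3 (1.05, 0.936 to 1.17) were not separated from the next class, and of the 8, Col2a1 and Col9a2 rested mainly on 2 cells. Of the 6, Col4a1 (ratio to endothelial-like cells 1.03, 0.911 to 1.17) was not separated from the next class. Nor was Col12a1 (ratio to peribronchial or myofibroblast-like cells 1.15, 0.927 to 1.42). In the Bmp7/Notum cluster, Col1a1 (3849.9 CPM), Col13a1 (167) and Col14a1 (605) lay between adventitial-like and alveolar-like levels. Its Col6a1, Col6a2, Col6a3, Col23a1, Col7a1 and Col15a1 were higher than in any other mesenchymal class taken as a whole. Single adventitial-like clusters exceeded it for Col15a1 (cluster 2, 552), Col5a1 (cluster 2, 475) and Col5a3 (cluster 11, 96.9). For Col6a1, Col6a2, Col6a3, Col23a1 and Col27a1, no adventitial-like or alveolar-like cluster of at least 100 cells did.

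Levels also varied within a class. Over the 4 adventitial-like clusters of at least 100 cells, 17 of 31 measured chains spanned 2-fold or more, against 23.6% of all features measured there. The 17 included Col2a1 and Col11a1, of which 84 and 27 UMIs lay in 1 cell of cluster 2. Cluster 2, led by Matn2, Cilp and Smoc2, had mean z-scores of 0.865 for the adventitial and 0.628 for the pericyte list. It had the highest Col3a1 (13989.5 CPM), Col1a1 (7596), Col15a1 (552), Col4a4 (103), Col4a3 (44.5), Col4a6 (42.4) and Col8a1 (32.7). The 3 others lay at 9.92 to 22.5 for Col4a4 and at 0 to 2.08 for Col8a1. Cluster 4, led by Apod, Lepr and Has1, had the highest Col13a1 (32.6), Col23a1 (55.8) and Col27a1 (43.7) of the adventitial-like clusters and the lowest Col3a1 (7371) and Col14a1 (1076). Cluster 11, led by Lrrn4cl, Cadm3 and Ebf2, had the highest Col14a1 (1729.7), Col5a3 (96.9) and Col12a1 (32.9) and the lowest Col15a1 (106). Cluster 5, led by Ccl8, Penk and Ccl11, had the highest Col6a6 (30.8) and Col6a5 (4.30).

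Over the 4 alveolar-like clusters, 17 of 26 chains spanned 2-fold or more, against 39.0% of all features. Cluster 7, led by Slc7a10, Bmper and Colq, had the highest Col13a1 (547), Col6a3 (707) and Col23a1 (141) and the lowest Col1a1 (907), Col14a1 (17.6) and Col15a1 (4.90). Cluster 8, led by Fmod, Cxcl14 and Hgf, had the highest Col1a1 (1985), Col3a1 (4004) and Col28a1 (8.01), with Col13a1 at 242. Cluster 1, led by Tnfaip2, Scn3a and Lrat, lay between for Col13a1 (424) and Col1a1 (1401) and had the highest Col4a1 (355), Col4a2 (202), Col4a5 (112), Col5a2 (331), Col6a1 (871), Col27a1 (86.3) and Col12a1 (30.3). Cluster 15 was shallow (median 1856.5 UMIs per cell), so its rarer chains rest on few UMIs.

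**Figure D4:**
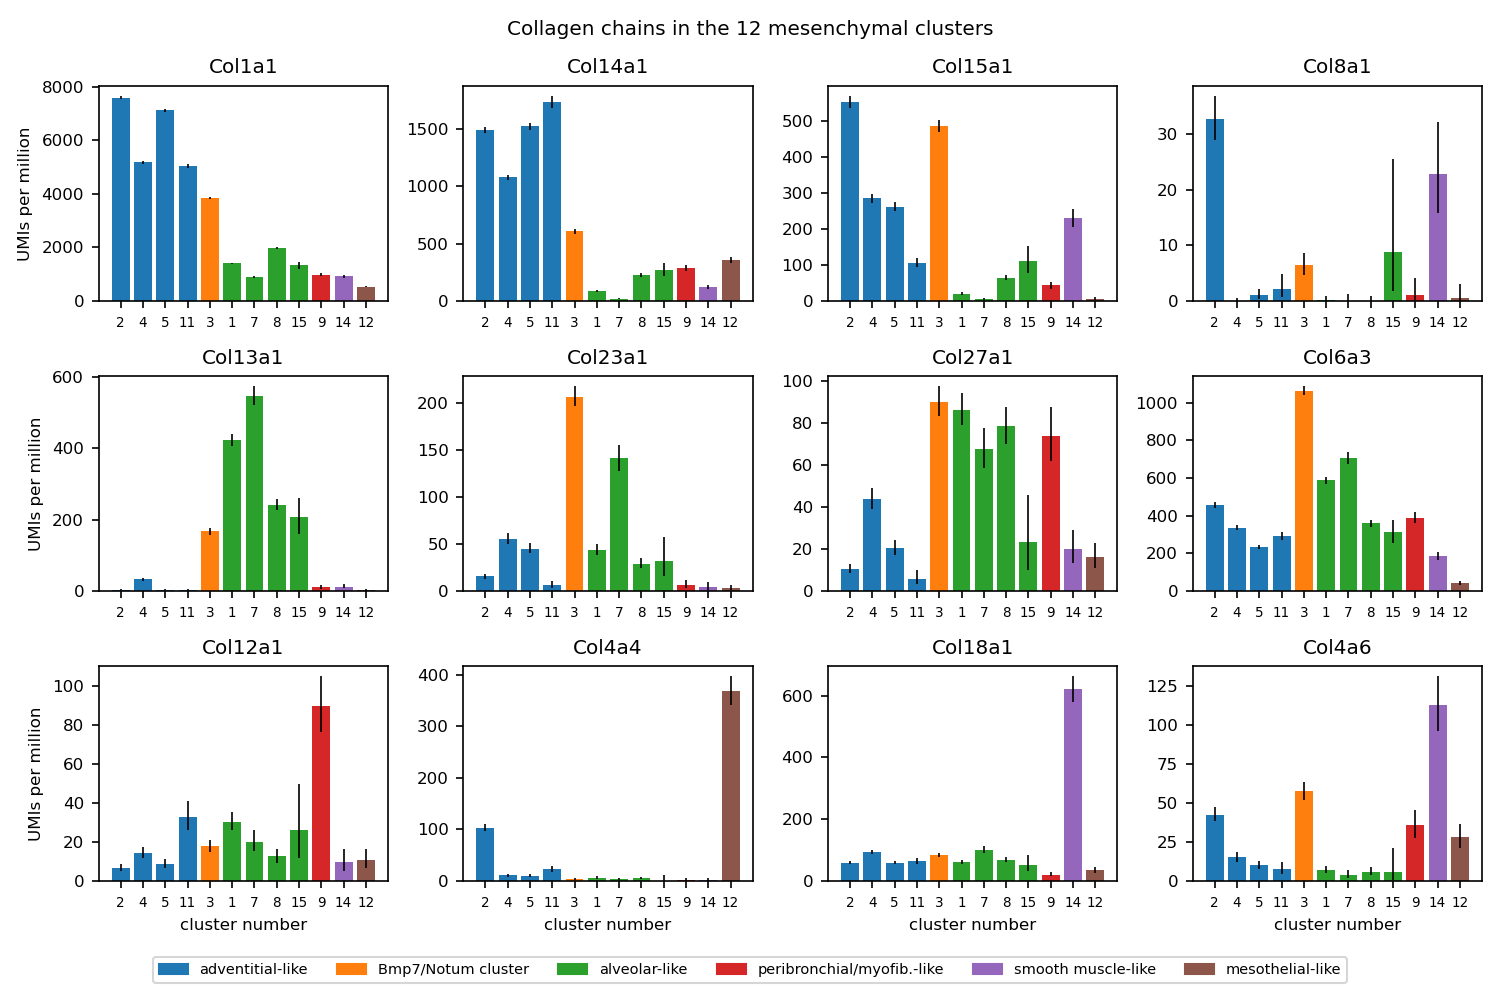
Level in CPM of 12 chains in each of the 12 mesenchymal clusters with at least 100 cells, coloured by class, with exact 95% Poisson intervals for counting error. Col8a1 is high in cluster 2 (32.7) and cluster 14 (22.9), Col13a1 in clusters 1 and 7 (424 and 547), Col4a4 in cluster 12 (369) and Col12a1 in cluster 9 (89.8).

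Each class was also set against all other mesenchymal cells. These comparisons share cells, so they are given side by side and not combined. Adventitial-like cells had 12 of 35 measured chains at least 2-fold higher and 7 lower, where all 13209 features gave 4.51% and 12.6%. With a looser filter, which kept cells from 200 genes upwards and up to 20% mitochondrial UMIs, 4 chains were higher and 15 lower, and the ratios of Col8a1 (3.62) and Col4a3 (2.29) became 0.0513 and 0.471. Alveolar-like cells had 4 higher and 16 lower (all features 7.54% and 11.9%), the 4 being Col13a1 (9.40, 8.87 to 9.96), Col28a1 (42 UMIs against 21), Col17a1 (3.88) and Col27a1 (2.08, 1.91 to 2.25). The sign of Col7a1 there depended on where the Bmp7/Notum cells were counted: its ratio was 0.288, and 11.2 with that cluster among the alveolar-like cells.

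Peribronchial or myofibroblast-like cells had 3 chains higher and 20 lower (all features 7.77% and 16.7%). Of the 3, only Col12a1 (5.70, 4.78 to 6.78) had over 100 UMIs, since Col11a2 and Col20a1 rested on 3 and 7 UMIs in the class. Smooth muscle-like cells had 3 higher and 24 lower (9.81% and 20.5%): Col18a1 (8.92, 8.28 to 9.61), Col4a6 (4.72, 3.98 to 5.57) and Col8a1 (3.23, 2.19 to 4.63), which turned to 0.175 at clustering resolution 2. Mesothelial-like cells had 4 higher and 21 lower (15.2% and 18.8%): Col6a5 (32 UMIs against 51), Col4a4 (15.1, 13.7 to 16.6), Col4a3 (7.73, 6.43 to 9.25) and Col11a1, the last on 7 UMIs.

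Finer clustering, looked at after the values were seen, divided the smooth muscle-like and mesothelial-like cells further. Smooth muscle-like cells fell into parts of 122 and 57 cells, with Myh11 at 3516 and 841 CPM and the pericyte marker Higd1b at 0 and 385. All 33 Col8a1 UMIs of the class were in the 57-cell part (131 CPM). Col18a1 was 713 in the 122-cell part and 187 in the other, Col15a1 274 and 15.9, and Col4a6 133 and 11.9. Col3a1 went the other way, 1231 and 3163. Mesothelial-like cells fell into parts of 181 and 28 cells, with Msln at 4385 and 521 and the fibroblast gene Dcn at 2756 and 18899. Of the 32 Col6a5 UMIs of the class, 29 were in the 28-cell part (136 CPM). That part had Col4a4 at 14.1 (3 UMIs) and no Col4a3 UMI, against 415 and 96.4 in the 181-cell part.

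Partner chains did not keep a fixed ratio. Col1a1 per Col1a2, the chains of type I collagen, was 0.667 (0.662 to 0.671) in adventitial-like cells and 0.633 to 0.689 in the alveolar-like, smooth muscle-like, mesothelial-like and Bmp7/Notum sets. It was 1.0 (0.937 to 1.07) in peribronchial or myofibroblast-like cells, whose interval met none of those. Col3a1 per Col1a1 was 1.40 to 1.97 in the adventitial-like, alveolar-like, smooth muscle-like and Bmp7/Notum sets, and 4.06 (3.85 to 4.28) and 5.04 (4.70 to 5.39) in peribronchial or myofibroblast-like and mesothelial-like cells. Col4a3 per Col4a4 was 1.17 (1.09 to 1.26) in alveolar type 1-like cells, 0.439 (0.393 to 0.490) in adventitial-like cells and 0.231 (0.194 to 0.275) in mesothelial-like cells. Col6a3 per Col6a1 was 0.0436 in mesothelial-like and 0.0438 in alveolar type 2-like cells and 0.917 (0.826 to 1.02) in peribronchial or myofibroblast-like cells. Col6a1 per Col6a2 was 1.25 to 1.89 in all mesenchymal sets and 5.85 (5.19 to 6.61) in alveolar type 2-like cells.

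**Figure D5:**
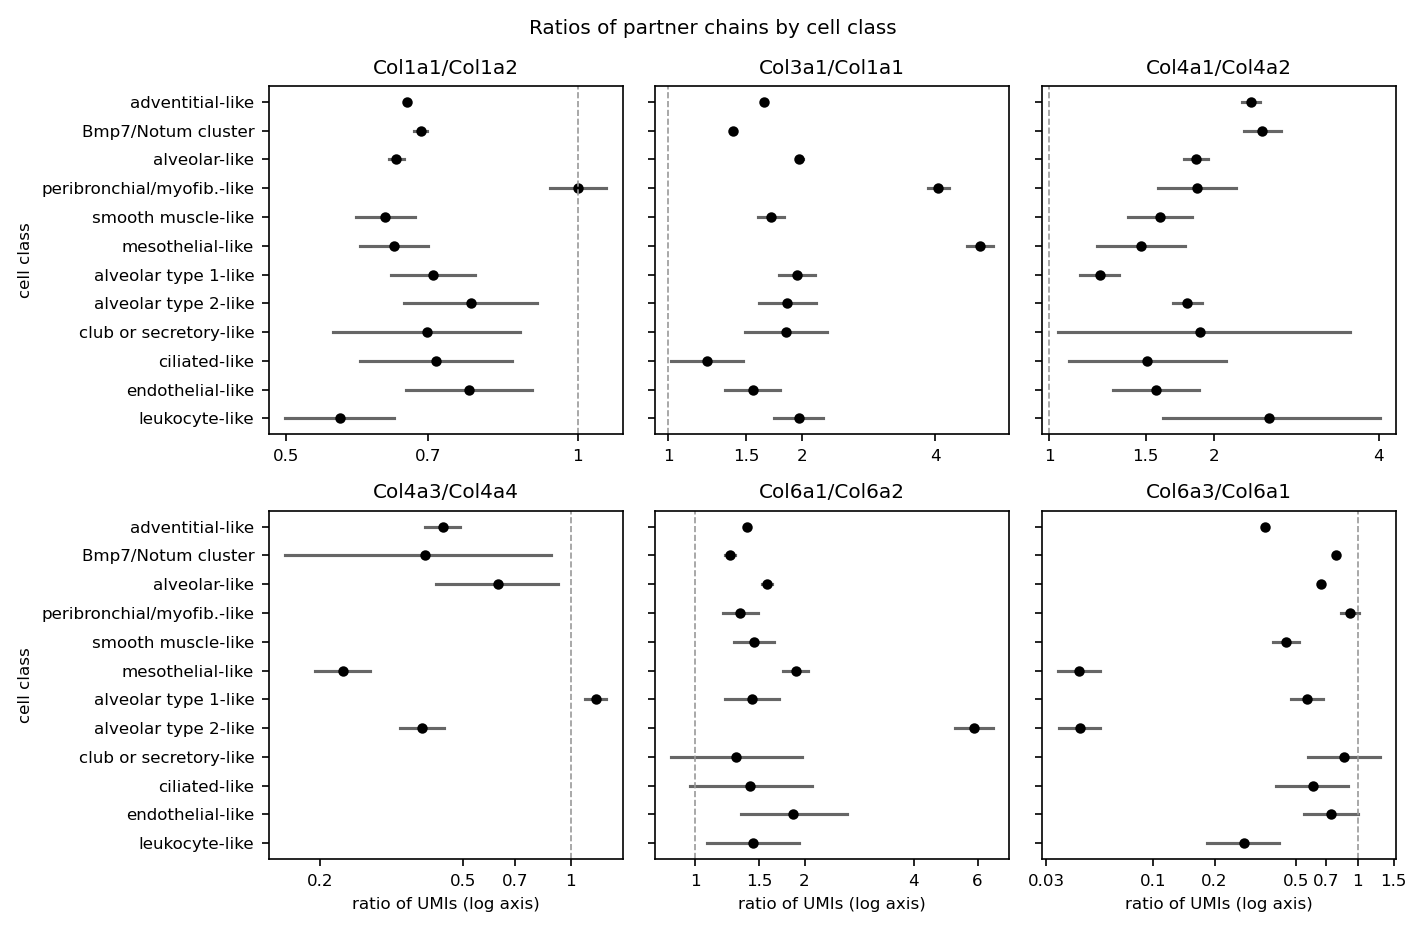
Ratio of UMIs of 6 pairs of chains in each cell class, on log axes that differ between panels, with exact 95% intervals for counting error; the dashed line marks equal counts and classes with too few UMIs are left out. Peribronchial or myofibroblast-like cells stand at 1.0 for Col1a1/Col1a2, and alveolar type 1-like cells are the class above 1 for Col4a3/Col4a4 (1.17).

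Over 20 clusters of at least 50 cells, levels of most partner chains varied together. These clusters span mesenchyme and epithelium, between which most chains differed at least 2-fold. No other gene pairs were measured for comparison, so the values cannot single out partner chains or head to head genes. Pearson's r on log levels was 0.976 for Col4a1 and Col4a2 (Spearman's rho 0.934), 0.893 for Col4a3 and Col4a4 (0.841) and 0.818 for Col4a5 and Col4a6 (0.835). Col1a1 and Col1a2, which lie on different chromosomes, gave 0.998 (0.983), Col3a1 and Col1a1 0.984 (0.955), Col5a1 and Col5a2 0.967 (0.962), Col6a1 and Col6a2 0.952 (0.965), Col9a1 and Col9a2 0.916 (0.541) and Col6a3 and Col6a1 0.784 (0.722), while Col8a1 and Col8a2 gave 0.104 (0.0807). Every Col9a1 UMI lay in a cell with a Col2a1 UMI, so the values for Col9a1 and Col9a2 rest on very few cells. All clusters come from the same pooled matrix, so these values are descriptions without a p-value.

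Cartilage chains rested on very few cells. Of 87 Col2a1 UMIs, 84 were in 1 cell of adventitial-like cluster 2 with 12836 UMIs, which also held 18 UMIs of Col9a2, 17 of Col9a3, 11 of Col9a1, 27 of Col11a1, 14 of Col11a2, 14 of Acan (aggrecan), 26 of Comp and 76 of Chad. A second cell of that cluster, with 9738 UMIs and 1 Col2a1 UMI, held 8 of Col9a2, 14 of Col11a1 and 8 of Acan. The other 8929 cells without a Col2a1 UMI held 0 UMIs of Col9a1, 4 of Col9a2, 19 of Col9a3, 38 of Col11a1 and 37 of Col11a2. Col2a1 and Col9a1, and most UMIs of Col9a2, thus lay in the 4 cells with a Col2a1 UMI, whereas Col9a3, Col11a1 and Col11a2 were also found in other cells.

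Cells with high and with low Egfp were compared within a class. Cells with Egfp at 1000 or more CPM were matched to cells under 200 of the same cluster and depth, giving 752 pairs of adventitial-like and 726 pairs of alveolar-like cells. Summed Egfp was 2676 and 26.6 CPM in the first pair of sets and 3413 and 27.5 in the second, so a low level does not show that a cell was unlabelled. Collagen was 3.30% of UMIs in reporter-high and 3.20% in reporter-low adventitial-like cells, and 1.07% and 1.12% in alveolar-like cells. No chain was 2-fold higher in either class, although in adventitial-like cells 1 was at a minimum of 10 UMIs, 1 without matching and 2 with any Egfp UMI against none. In adventitial-like cells 2 of 29 chains were lower (all features 0.371% higher and 0.498% lower), Col2a1 and Col11a1, and neither was among the called chains without the cells that held a Col2a1 UMI. In alveolar-like cells 1 of 26 was lower (0.231% and 0.413%), Col28a1, at 5 UMIs against 30. Among abundant chains the ratios of reporter-high to reporter-low adventitial-like cells were 1.06 (1.04 to 1.07) for Col1a1, 1.02 (1.01 to 1.03) for Col3a1, 1.14 (1.08 to 1.21) for Col15a1 and 1.46 (1.21 to 1.75) for Col23a1. Col12a1 was at 0.602 (0.449 to 0.804). In alveolar-like cells Col1a1 was at 0.930 (0.900 to 0.962), Col13a1 at 1.01 (0.944 to 1.09) and Col23a1 at 0.803 (0.655 to 0.984).

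Genes that make and finish collagen were counted in the same way, beside the 8.93% higher and 10.4% lower of all features. Of 15 prolyl and lysyl modification genes, 14 were measured in the adventitial-like to alveolar-like comparison, and 1 was higher and 1 lower. P4ha2, a subunit of prolyl 4-hydroxylase, had a ratio of 3.66 (3.20 to 4.19), and Colgalt2, which adds galactose to hydroxylysine, 0.261 (0.193 to 0.350). Of 12 chaperone and export genes 1 was higher, Sparc (2.51, 2.48 to 2.53), while Serpinh1, the collagen chaperone HSP47, stood at 1.80. Among 6 measured genes of propeptide processing, Bmp1 (4.61, 4.16 to 5.13), the procollagen C-proteinase, and Adamts2 (2.66, 2.57 to 2.76), an N-proteinase, were higher, and Adamts3, another N-proteinase, was lower on 20 UMIs against 28. Of 6 crosslinking genes 1 was higher, Loxl3 (2.39), and Lox stood at 0.811. Of 8 measured collagen receptors, 3 were higher and 1 lower.

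Other classes had modifying genes of their own. Plod2, a lysyl hydroxylase of telopeptides, was at 269 CPM in alveolar type 1-like and 2.56 in type 2-like cells (ratio 105, 76.5 to 148), and its level elsewhere did not pass 77.9. P4ha3 was at 101 in peribronchial or myofibroblast-like cells, 24.4 times (19.8 to 30) the level in the other mesenchyme. P3h4, a partner of lysyl hydroxylase, was at 332 in mesothelial-like cells, a ratio of 5.05 (4.62 to 5.50). Ratios in smooth muscle-like cells were 0.0806 for Pcolce and 0.128 for Pcolce2, the enhancers of procollagen processing, and 6 of 6 measured processing genes were lower there, beside 20.5% of all features. The matched reporter sets had no gene of the 5 lists higher, and 1 was lower (P4ha3 in the adventitial-like pairs, at 14 UMIs against 28).

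The authors' deposited table gives mean counts and log2 fold changes for 17 clusters of the same cells, named here by marker. In the authors' deposited table, Col1a1, Col1a2, Col3a1, Col14a1 and Col15a1 were highest in cluster 3, where Pi16 was also high (mean count 13.2), with Col14a1 at 11.7 and a log2 fold change of 2.14. By the authors' deposited table, Col4a3 (mean count 6.35, log2 fold change 5.88) and Col4a4 (5.52 and 4.37) were highest in cluster 16, where Ager was at 105. Col13a1 was highest in the authors' deposited table in cluster 1 (3.56 and 3.11), the cluster with Inmt at 41.2. Col8a2 (0.430 and 4.88) and Col26a1 (log2 fold change 6.25) led in cluster 13 of the authors' deposited table, where Foxj1 was at 3.87. Col15a1 (mean count 3.78), Col5a1 (3.57) and Col5a3 (0.513) led in cluster 3 of the authors' deposited table, with cluster 2, also adventitial by marker, second. By class they were highest in the Bmp7/Notum cluster above, with Col5a1 and Col5a3 not separated from adventitial-like cells. Other chains were placed differently, of which some are given. Col27a1 led in cluster 9 of the authors' deposited table (1.20), highest for the smooth muscle list, with cluster 7 second (0.647). Col7a1 led in cluster 9 (0.146) and cluster 17 (0.145), highest for the smooth muscle and the alveolar type 2 list in the authors' deposited table, and not in cluster 11, where Notum was highest (0.560). Col2a1 led in cluster 6 of the authors' deposited table (0.139), whose highest list was smooth muscle. These clusters rest on the same counts and are no independent measurement.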

How the data were processed

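Single-cell 3′ RNA-seq of sorted lung cells gave UMI counts per gene and barcode, which the authors made with Cell Ranger 3.0.0 on mm10, per the submitters' processing notes. No other step is named in the labels. The authors' deposited table holds, per cluster, mean counts whose scaling it does not state (treated as a score), log2 fold changes and adjusted p-values, and the p-values were not used. The chains and gene lists, and the lists of 54 genes in 5 groups, were chosen with earlier results of these data known.

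The matrix held 11118 barcodes, the number of recovered cells that the design text states. Of these, 1296 had under 500 genes and 1545 over 10% mitochondrial UMIs, and 9391 passed both limits. Scrublet, in scanpy 1.11.5 with an expected rate of 0.08, called 458 doublets (4.88%), which were removed. Counts were scaled to 10000 per cell and logged, and 2000 variable genes (without collagens, pathway, mitochondrial, ribosomal and reporter genes), 30 components, 15 neighbours and Leiden clustering (leidenalg 0.10.2, resolution 1) gave 23 clusters. Clusters were named by the mean z-score over 18 marker lists, with at least 3 markers detected in 25% of cells. After the data were seen, a margin of 0.1 for near ties, a rule for heart muscle genes and the need for more than 1 foreign marker were added. The marker Snorc was not found among the features. Cluster 3, a near tie of both fibroblast lists, and clusters 17 (leading genes of another list), 20 (proliferation genes) and 21 (heart muscle genes) were left without a class.

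UMIs were summed per set of cells. Intervals are exact (Poisson for levels, conditional binomial for ratios, Clopper-Pearson for shares; scipy 1.17.1) and cover counting error at 95% only. A chain was called higher or lower at a ratio of at least 2 or at most 0.5 with at least 30 UMIs over both sets, and single ratios are printed where both sets together had at least 100 UMIs. A fold against 0 UMIs was set against 3 UMIs. For shares of cells, cells were thinned to 2000 UMIs and shallower cells left out. All chains may be named, and of each pathway list the 3 highest and 3 lowest ratios with at least 100 UMIs over both sets. The ratio script was tested on simulated data. Alternatives changed the resolution, filter, doublets, variable genes, weighting, UMI minimum, fold, reporter sets and naming.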

Additional observations from a re-analysis of the deposited data

How the results depend on the processing

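No paired analysis was possible because the samples form 1 group and cells carry no sample. Of 2652 chain ratios under alternatives, 2563 stayed on the same side of the fold threshold, 76 moved across it and 13 reversed. The cause of each change below was not tested. Naming near ties by the higher score, leaving out the shallow cluster and leaving out the cells with a Col2a1 UMI were chosen after seeing the data.

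For adventitial-like over alveolar-like cells, the collagen share ratio (3.15) was 2.79 at resolution 2, 2.35 with doublets kept, 2.86 with the looser filter (at least 200 genes, at most 20% mitochondrial UMIs, 9343 cells), 2.41 with all genes allowed as variable, 3.23 with clusters and values from separate UMIs, 3.36 with cells weighted equally and 2.30 with near ties named. Chains lower went from 4 to 7 with doublets kept, the looser filter, all genes, separate UMIs and near ties named. Col4a6 became 0.971 with near ties named. Pathway genes higher went from 8 to 4 with doublets kept, at 3-fold and with near ties named, and lower from 3 to 1 at 100 UMIs and at 3-fold.

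Against other mesenchyme, adventitial-like chains higher went from 12 to 7 (resolution 2), 4 (looser filter) and 5 (separate UMIs), and lower from 7 to 15 (looser filter). Col8a1 became 0.585 at resolution 2 and 0.0513 with the looser filter, Col4a3 0.471 with the looser filter, and Col7a1 1.23 and Col23a1 1.34 at resolution 2. Alveolar-like chains higher went from 4 to 8 (all genes) and 7 (near ties named), and Col7a1 became 1.23 (resolution 2), 8.18 (doublets kept), 9.49 (all genes) and 11.2 (near ties named). Peribronchial or myofibroblast-like chains higher went from 3 to 1 at resolution 2, with equal weights, at 100 UMIs and at 3-fold. Smooth muscle-like chains lower went from 24 to 15 at 3-fold, Col7a1 became 1.13 with equal weights and Col8a1 0.175 at resolution 2. Mesothelial-like chains higher went from 4 to 2 at 100 UMIs.

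For alveolar type 1-like against type 2-like cells, chains higher went from 20 to 10 and Col14a1 to 0.843 with doublets kept, and chains lower from 1 to 0 (separate UMIs, 100 UMIs) or 2 (10 UMIs). In the adventitial-like reporter sets, chains higher went from 0 to 1 (10 UMIs), 2 (any Egfp UMI against none) and 1 (unmatched). Chains lower went from 2 to 1 at resolution 2, to 6 at 10 UMIs and to 0 with the looser filter, all genes, separate UMIs, 100 UMIs, any Egfp UMI against none and without the Col2a1 cells. In the alveolar-like sets 1 lower chain became 0 at 100 UMIs. Col1a1 per Col1a2 in adventitial-like cells was 0.672 with doublets kept and 0.671 with equal weights, and Col4a3 per Col4a4 in alveolar type 1-like cells 1.09 with separate UMIs. Chains with a 2-fold range between adventitial-like clusters went from 17 to 11 at resolution 0.5 and 10 with the looser filter, and between alveolar-like clusters from 17 to 4 at resolution 0.5, 11 with separate UMIs and 6 at 3-fold.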
